A study of Mus musculus with 23 samples.

Results

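The messenger RNA levels of 28 genes of cholesterol and fatty acid synthesis were followed in mouse embryonic stem cells (ESCs) with and without SET, a nuclear protein that binds histones and inhibits the phosphatase PP2A. The 28 genes, of 55573 counted, were taken by symbol for their place in the pathways, and all 28 were found. They comprise 6 enzymes of the mevalonate steps, 4 that make squalene and lanosterol and remove the first methyl group, 7 that turn the product into cholesterol, 4 regulators, 2 genes of sterol transport and acetyl-CoA chemistry, and 5 of fatty acid synthesis.

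Cells build cholesterol from acetyl-CoA. Hmgcs1 opens the branch, the mevalonate enzymes make isoprenoid units, squalene is folded into lanosterol, and a chain of oxidations and isomerisations ends in cholesterol. Fatty acids start from the same acetyl-CoA, which Acly makes from citrate, Acaca carboxylates, Fasn extends and Scd1 and Scd2 desaturate. When membrane sterol is low, Scap escorts the SREBP proteins (genes Srebf1 and Srebf2) out of the endoplasmic reticulum, they are cleaved, and the freed part switches on the genes of both pathways. Insig1, itself a target, holds Scap back when sterol is plentiful.

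All cells were grown on mouse embryonic fibroblast feeders in medium with fetal bovine serum and LIF. R1 ESCs came as 2 sets, numbered 1 and 2 in the titles, with SET-/- cells labelled KO1 or KO2 and wild-type (WT) cells. Set 1 holds 4 KO samples (2 KO1, 2 KO2) and 2 WT samples. Set 2 holds 4 untreated KO samples (2 KO1, 2 KO2) and 2 untreated WT samples, a sample being all libraries that share a title code. The titles number its untreated libraries as replicates 1 to 4 for WT and 1 to 3 for each KO label. In addition it holds 2 KO samples, both titled KO1, and 1 WT sample after 4 days of retinoic acid (RA), an inducer of differentiation. KH2 ESCs with a doxycycline-inducible SETa-HA transgene came as 2 samples with doxycycline (Dox, 1 µg/mL for 24 h) and 2 without, which carry the transgene too. The labels say neither whether KO1 and KO2 are single clones nor whether replicates are separate cultures, so the p-values speak for the spread among these samples alone, part or all of which may be technical. Levels are CPM, read counts scaled to the sample's TMM-adjusted total, and each fold change is a log2 value from edgeR's quasi-likelihood F test, called at a Benjamini-Hochberg adjusted p under 0.05 over all genes tested. Reads come from near the 3' end of transcripts, and levels are set side by side only within a gene.

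Samples held 806412 to 1445013 counts in set 1, 2833064 to 10217040 in untreated set 2, 3904924 to 5047363 after RA and 4848478 to 6472695 in KH2. A count of 3, taken as the detection floor, corresponds to between 0.294 and 3.72 CPM, with the highest values in set 1. The targeted gene, Set, lay at 16.8 to 25.6 CPM in set 1 KO samples against 943 and 979 CPM in WT. It lay at 273 to 569 CPM in untreated set 2 KO samples against 1198 and 1454 CPM in WT, so the libraries labelled KO in set 2 kept part of the transcript. After RA it lay at 288 and 194 CPM in KO samples against 580 CPM in WT (log2 -1.31, SE 0.20, adjusted p = 0.0052). The labels do not give the deleted part, and a 3' tag outside it checks nothing. The markers of ESCs were detected in every sample. In KO samples, 8 of 10 ESC markers were lower, 9 of 10 extraembryonic endoderm markers were higher and 6 of 15 tested feeder fibroblast markers were higher. The summed feeder markers were 299 to 482 CPM in set 1 KO against 40.5 and 67.8 CPM in WT, and 440 to 679 CPM in set 2 KO against 318 and 387 CPM in WT. Lum was at 0 in every set 1 sample and both set 2 WT samples, and Col6a2, Dcn and Postn were at 0 in both set 1 WT samples. Endoderm markers summed to 2093 to 2784 CPM in set 1 KO against 838 and 943 CPM in WT, and to 1864 to 2225 CPM in set 2 KO against 1232 and 1270 CPM in WT. ESC markers summed to 1496 to 1884 CPM in set 1 KO against 3383 and 3728 CPM in WT, and to 1727 to 2018 CPM in set 2 KO against 2708 and 3043 CPM in WT. The part of these cells in the results below was not tested. In bulk RNA, fewer cells of a type and less RNA per cell cannot be told apart.

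SET KO against WT in undifferentiated R1 ESCs addresses what the loss of SET does to these pathways. Over both sets, Hmgcs1, Fdft1, Ebp, Fasn and Scd2 were higher in KO cells and no member was lower. They sit at the first step, the entry to squalene, the late isomerisation, fatty acid chain synthesis and desaturation. The rises were below 2-fold, between 0.42 and 0.55 on the log2 scale. Both SREBP genes showed no change past the threshold, with a log2 fold change of 0.03 (SE 0.17) for Srebf1 and -0.02 (SE 0.11) for Srebf2. The count of 5 of 28 called higher stands beside 10.4% of all 11515 tested genes called higher and 8.63% called lower, 19.1% in either direction. The median over the members was 0.23, with 23 of 28 fold changes above 0, against -0.02 over all genes tested. Without WT sample 1a of set 1, 2 members were called, Hmgcs1 and Scd2. Ebp was not called with KO1 alone against WT, nor was Fdft1 with KO2 alone. These fits hold fewer samples, so a lost call does not show that KO1 and KO2 differ. Of 21 alternatives, Ebp was lost in 4, Fdft1 in 3 and Fasn in 1.

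Hmgcs1 encodes HMG-CoA synthase, which joins acetyl-CoA to acetoacetyl-CoA (ENSMUSG00000093930, GRCm38 chromosome 13, 119690379 to 119708260, + strand). It had 681, 824, 718 and 709 CPM in set 1 KO samples against 443 and 487 CPM in WT. In set 2 it had 999.6, 824, 828.5 and 743 CPM in KO samples against 611 and 644 CPM in WT. All 8 KO samples lay above all WT samples of their set, with a log2 fold change over both sets of 0.55 (SE 0.10, adjusted p = 0.000302). The call was made in each set alone too. In set 1 it stood at 0.66 (SE 0.14, adjusted p = 0.0057) and was lost in 1 of 12 alternatives. In set 2 it stood at 0.47 (SE 0.12, adjusted p = 0.0133) and was lost in 4 of 17, KO2 alone against WT among them.

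The other mevalonate steps did not pass. Over both sets the log2 fold change was 0.23 (SE 0.15) for Mvk and 0.10 (SE 0.12) for Pmvk, the 2 kinases that act on mevalonate in turn. It was 0.21 (SE 0.19) for Fdps, which makes farnesyl diphosphate. Mvd, the decarboxylase that follows, had 68.6, 106, 69.7 and 53.7 CPM in set 1 KO samples against 42.8 and 52.9 CPM in WT, and 192, 154, 205 and 189 CPM in set 2 KO samples against 219 and 217 CPM in WT. KO samples were thus above WT in set 1 and below WT in set 2, each without overlap. Idi1, the isomerase of isoprenoid units, rested on 2 to 16 counts per untreated R1 sample and is not read further here.

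Fdft1, squalene synthase (ENSMUSG00000021273, chromosome 14, 63145150 to 63179578, - strand), commits farnesyl diphosphate to sterols. It had 67.5, 75.6, 55.3 and 61.8 CPM in set 1 KO samples against 40.4 and 51.3 CPM in WT, and 101, 96, 83.8 and 75.1 CPM in set 2 KO samples against 69.3 and 69.1 CPM in WT. KO and WT did not overlap in either set, and the log2 fold change over both was 0.43 (SE 0.12, adjusted p = 0.0147). The level and the fold changes of Fdft1 are uncertain. All of its last 500 exonic bases, where 3' tags fall, overlap Ctsb in the annotation. The authors' counting set no strand option, and reads over several genes are not counted by default.

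Sqle, squalene epoxidase, was called in set 1 alone, where it had 137, 141, 139 and 135 CPM in KO samples against 84.7 and 92.6 CPM in WT (log2 0.64, SE 0.17, adjusted p = 0.018; lost in 4 of 12 alternatives). In set 2 its KO samples, at 91.6 to 122 CPM, overlapped WT samples at 91.4 and 107 CPM. The next steps, Lss (lanosterol synthase) and Cyp51 (lanosterol demethylase), had log2 fold changes of 0.19 (SE 0.18) and 0.04 (SE 0.10) over both sets and were not called.

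Among the 7 post-lanosterol enzymes, Ebp, the sterol isomerase (ENSMUSG00000031168, chromosome X, 8185329 to 8193512, - strand), was called over both sets. It had 52.5, 62.0, 53.7 and 62.4 CPM in set 1 KO samples against 33.9 and 27.3 CPM in WT (log2 0.92, SE 0.22, adjusted p = 0.0101 in set 1). In set 2 the groups overlapped, at 92.8, 69.5, 80.9 and 83.7 CPM in KO samples against 67.6 and 77.9 CPM in WT, and the log2 fold change over both sets was 0.43 (SE 0.14, adjusted p = 0.0286). Sc5d, the C5 desaturase, was called in set 2 alone, at 58.1, 60.1, 63.2 and 71.5 CPM in KO samples against 43.2 and 50.1 CPM in WT (log2 0.47, SE 0.14, adjusted p = 0.0377), a call lost in 10 of 17 alternatives, DESeq2's Wald test and the fit without a low-count filter among them. In set 1 it overlapped, with 32.2 to 44.3 CPM for KO against 38.7 and 32.3 CPM for WT. The remaining 5 were not called over both sets: 0.42 (SE 0.16, adjusted p = 0.0781) for Hsd17b7, 0.31 for Nsdhl, 0.23 for Msmo1, 0.05 for Dhcr7 and -0.04 for Tm7sf2.

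In fatty acid synthesis, Fasn, the synthase that extends the chain (ENSMUSG00000025153, chromosome 11, 120805846 to 120824547, - strand), had 325, 435, 350 and 335 CPM in set 1 KO samples against 210 and 231 CPM in WT. In set 2 it had 553.7, 645, 635 and 655 CPM in KO samples against 559 and 554.03 CPM in WT, with 1 KO sample just below both WT values. The log2 fold change was 0.42 (SE 0.11, adjusted p = 0.0094) over both sets, 0.72 (SE 0.17, adjusted p = 0.0087) in set 1 and 0.20 (SE 0.10, adjusted p = 0.247) in set 2. Scd2, a stearoyl-CoA desaturase (ENSMUSG00000025203, chromosome 19, 44293674 to 44306864, + strand), had 434, 428, 460 and 453 CPM in set 1 KO samples against 295 and 307 CPM in WT. In set 2 it had 726, 723, 771 and 525 CPM in KO samples against 504 and 541 CPM in WT, and 1 KO sample lay between the WT values. It was called over both sets (log2 0.48, SE 0.10, adjusted p = 0.0012). The call in set 1 (log2 0.56, SE 0.14, adjusted p = 0.0152) was lost in 4 of 12 alternatives. The call in set 2 (log2 0.43, SE 0.13, adjusted p = 0.0367) was lost in 8 of 17. Scd1, its paralog, had a log2 fold change of 0.13 (SE 0.11) and Acaca one of 0.28 (SE 0.15), and neither was called. Acly was the member furthest below 0, at -0.22 (SE 0.09, adjusted p = 0.102), with KO samples at 240 to 267 CPM below WT at 290 and 295 CPM in set 1 and overlapping in set 2.

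Of the regulators and the 2 transport and acetyl-CoA genes, none was called in KO against WT in either set or over both. Insig1 had 21.9, 25.4, 21.7 and 24.2 CPM in set 2 KO samples against 31.5 and 28.8 CPM in WT, without overlap, but overlapping values in set 1 (log2 -0.18, SE 0.14, over both). Scap stood at 0.37 (SE 0.14, adjusted p = 0.0639) over both sets. Stard4, which carries cholesterol between membranes, stood at 0.28 (SE 0.13, adjusted p = 0.147). Acat2, a cytosolic thiolase that makes acetoacetyl-CoA, stood at -0.03 (SE 0.10).

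**Figure D1:**
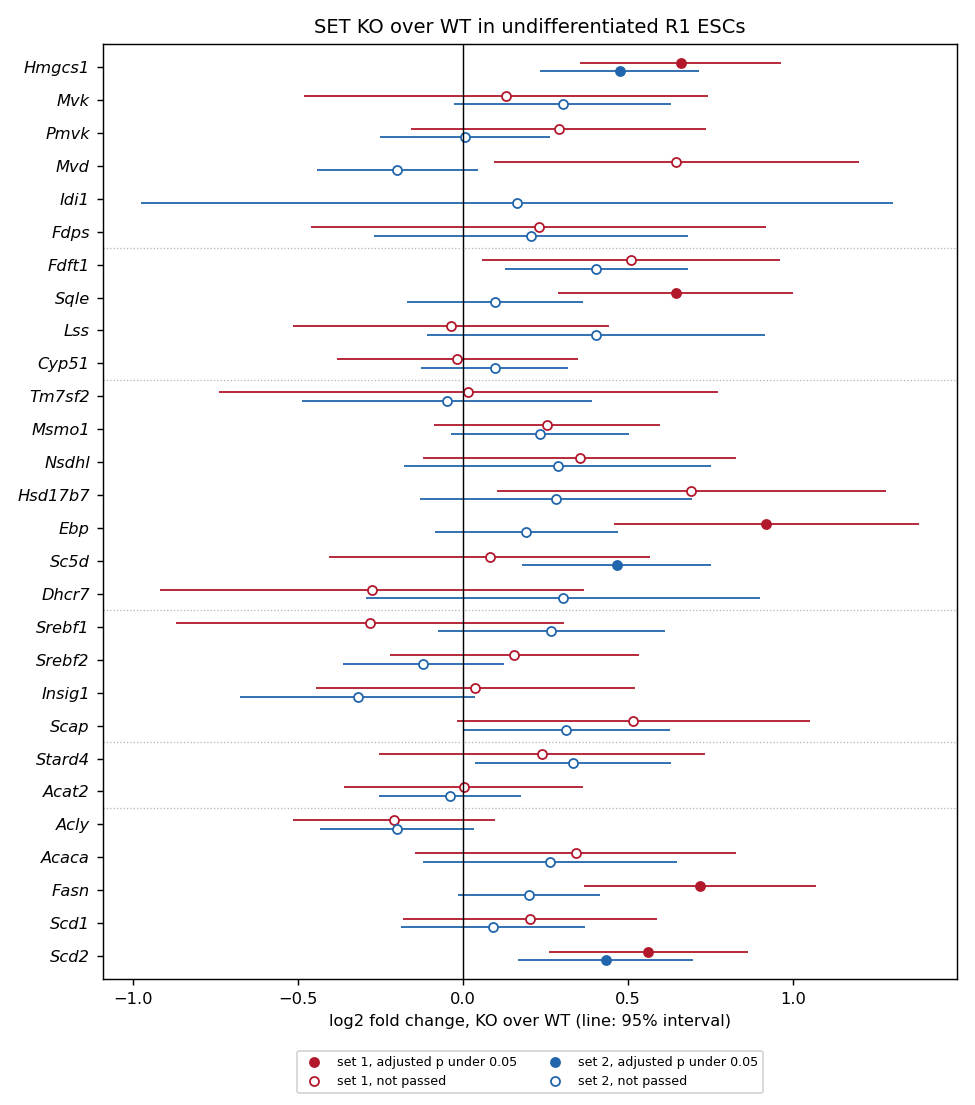
Log2 fold change of SET KO over WT for the members in pathway order, with set 1 in red above set 2 in blue. Lines are 95% intervals and filled points passed an adjusted p of 0.05, as 5 members did in set 1 and 3 in set 2; Idi1 was not tested in set 1.

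**Figure D2:**
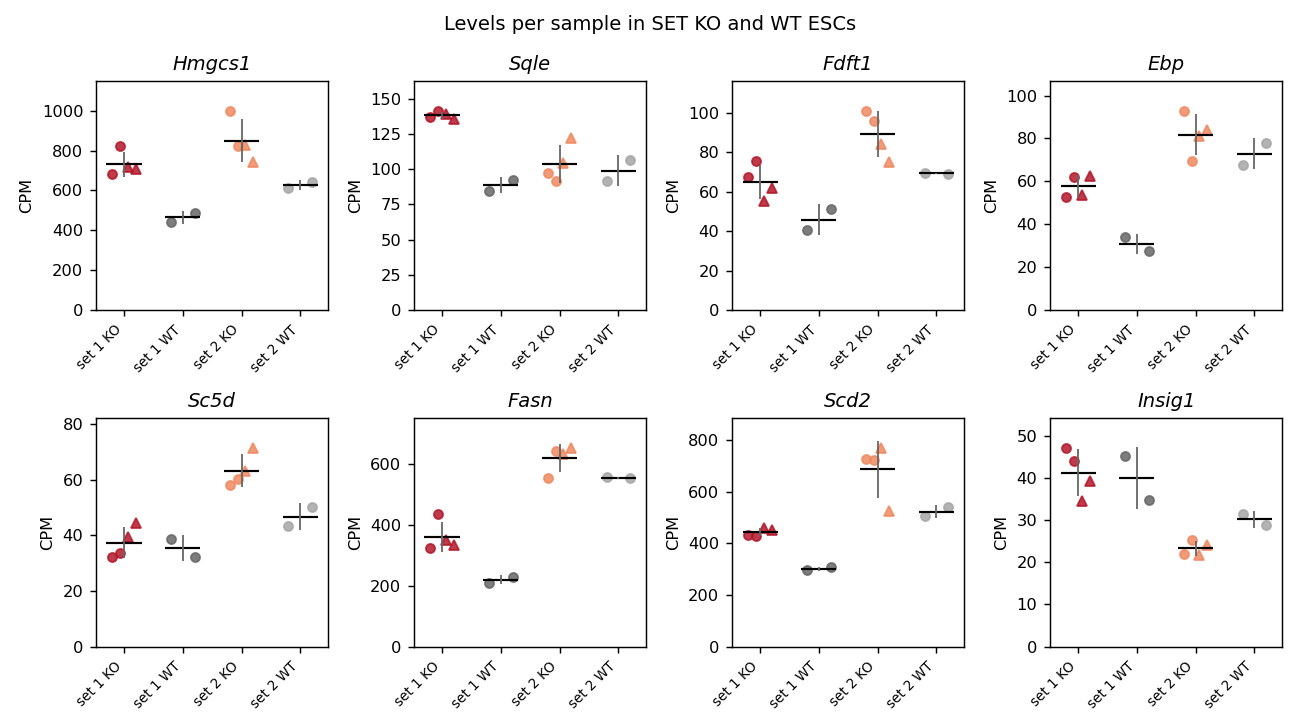
CPM per sample of 8 members, KO left of WT in each set (circles KO1 or WT, triangles KO2; horizontal bar, mean; vertical line, SD). Hmgcs1 and Fdft1 are the 2 members whose KO samples all lay above WT in both sets, and Insig1 shows KO below WT in set 2 only. Of all genes compared, 6.98% lay above WT in both sets, so nothing particular to the members is read from this. The level and the fold changes of Fdft1 are uncertain, since all of its last 500 exonic bases overlap Ctsb.

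Taking each set alone, 5 of 27 tested members were called higher in set 1 (7.19% of all genes tested there) and 3 of 28 in set 2 (5.64%), none lower in either. The share called lower was 5.1% of all genes in set 1 and 3.55% in set 2, and that called in either direction 12.3% and 9.19%. All KO samples lay above all WT samples for 12 of 28 members in set 1, where 17.2% of genes did, and 5 of 28 in set 2, where 13.8% did. Hmgcs1 and Fdft1 did so in both sets, against 6.98% of genes. In the other direction, 1 member lay below WT in set 1 (Acly, against 16.2% of genes), 2 in set 2 (Mvd and Insig1, 18.4%) and 0 in both (6.99%). The counts of calls depended on single samples: set 1 gave 1 call without WT sample 1a, 2 without WT sample 1b and 3 without KO sample 1e. Set 2 gave 0 without WT sample 2a or 2b, 1 without KO sample 2d or 2e, and 5 without KO sample 2f. With KO2 alone against WT, set 2 gave 0 calls.

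The promoters of Hmgcs1, Fasn and Ebp are shown because these are the 3 members with the smallest adjusted p over both sets that have an entry in the RefSeq promoter table (GRCm38.p6). Each window runs 5' to 3' on the gene's strand from 250 bases before to 50 after the annotated start. Capitals mark matches on either strand to TCACNCCAC, a form of the sterol regulatory element that SREBP proteins bind, and to CCAAT, the box bound by NF-Y, a partner of SREBP. Where 2 matches overlap they run together. The windows are chr13:119690101-119690400 (+), chr11:120824498-120824797 (-) and chrX:8193463-8193762 (-).
Hmgcs1: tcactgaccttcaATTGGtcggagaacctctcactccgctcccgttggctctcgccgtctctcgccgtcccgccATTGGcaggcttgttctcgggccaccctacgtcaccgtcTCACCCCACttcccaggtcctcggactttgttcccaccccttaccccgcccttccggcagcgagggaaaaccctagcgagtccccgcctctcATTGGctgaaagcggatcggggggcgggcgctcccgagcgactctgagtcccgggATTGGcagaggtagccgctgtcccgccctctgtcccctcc
Fasn: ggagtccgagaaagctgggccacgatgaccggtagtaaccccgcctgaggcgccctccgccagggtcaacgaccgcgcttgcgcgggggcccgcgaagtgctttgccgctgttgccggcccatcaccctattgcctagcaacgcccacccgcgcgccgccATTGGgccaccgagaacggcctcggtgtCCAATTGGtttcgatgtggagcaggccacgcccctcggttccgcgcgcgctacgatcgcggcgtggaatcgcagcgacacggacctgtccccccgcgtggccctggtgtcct
Ebp: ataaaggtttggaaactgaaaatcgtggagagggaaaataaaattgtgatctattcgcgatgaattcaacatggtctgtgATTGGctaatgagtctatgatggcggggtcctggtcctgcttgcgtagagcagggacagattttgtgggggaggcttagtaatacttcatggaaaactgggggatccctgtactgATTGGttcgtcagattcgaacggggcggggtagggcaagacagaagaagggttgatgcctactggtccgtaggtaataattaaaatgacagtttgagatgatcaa

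Hmgcs1 holds 1 match to TCACNCCAC, at base -137 from the start, and 4 to CCAAT; Fasn holds 3 matches to CCAAT and Ebp 2. Over the table, TCACNCCAC occurred in 1.24% of 32851 windows of this length and, among the 22 members with an entry, in Hmgcs1. CCAAT occurred in at least 1 window of 41.1% of 27025 genes and of 19 of the 22 members. GGGCGG, the GC box, occurred in 38.2% of genes and in 19 of 22 members, and CACGTG, the E-box, in 8.09% of genes and 5 of 22 members. A match of letters is a description of the window, not a site shown to be bound.

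Set 2 libraries stood apart from one another within groups. Samples 2a, 2b, 2d and 2e were each sequenced as 2 libraries whose counts were summed, and along the leading principal component (33.1% of the variance of the 10 untreated libraries) all 4 first libraries and 2f fell on one side (called high here) and all 4 second libraries and 2c on the other (low). Each side holds 3 KO and 2 WT libraries. Within the high side 0 members were called, where 4.06% of all genes tested were, and within the low side 7, where 13.7% of genes were. Samples 2a, 2b, 2d and 2e hold a library on each side, so the libraries of one side cannot be taken as independent of the other. The sides were drawn from the same expression values, not from the labels, and the difference between sides was not tested, so a call on one side and not on the other does not show that they differ.

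Hmgcs1 had 744, 623 and 740 CPM in high-side KO libraries against 568.2 and 612 CPM in WT, and 990, 847 and 883 CPM in low-side KO libraries against 616 and 656 CPM in WT. KO lay above WT on both sides, by a fitted log2 of 0.27 on the high side and 0.49 on the low side. Scd2 had 557, 521 and 524 CPM in high-side KO libraries against 473 and 540 CPM in WT, which overlapped, and 719, 803 and 841 CPM in low-side KO libraries against 506 and 460 CPM in WT, which did not. Its fitted log2 fold change was 0.10 on the high side and 0.69 on the low side. Sc5d had a fitted log2 fold change of 0.54 on the high side and 0.33 on the low side, with no overlap on either.

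**Figure D3:**
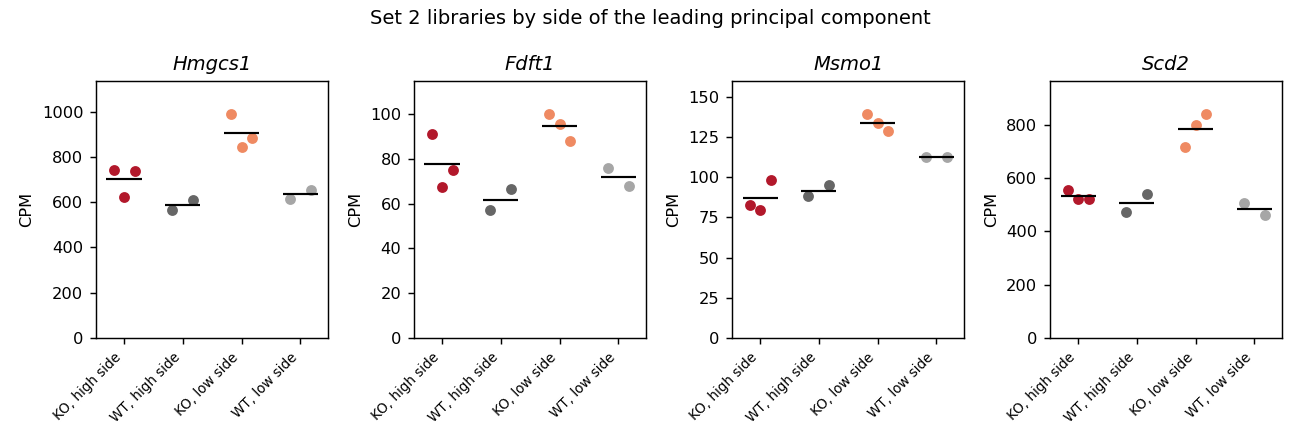
CPM per library of 4 members in untreated set 2, split by side of the leading principal component, with KO left of WT on each side and bars at the means. Hmgcs1 and Fdft1 have KO above WT on both sides, while Scd2 and Msmo1 separate on the low side and overlap on the high side.

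The KO effect was compared between sets with an interaction term, set 2 minus set 1. No member passed edgeR's quasi-likelihood test, against 0.828% of all genes tested (0.159% higher, 0.669% lower), while 4 had an unadjusted p under 0.05 and DESeq2 called 0. Those 4 were Mvd at -0.86 (SE 0.29, adjusted p = 0.209), Ebp at -0.73 (SE 0.25, adjusted p = 0.225), Fasn at -0.53 (SE 0.19, adjusted p = 0.272) and Sqle at -0.55 (SE 0.21, adjusted p = 0.309), all with the smaller or opposite KO effect in set 2. The 95% interval of the difference for Hmgcs1 ran from -0.58 to 0.19. A difference in the effect on Set itself was called (log2 3.94, SE 0.33, adjusted p = 2.48e-06), set 2 keeping more of the transcript.

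Levels differed between sets more than between genotypes for several members. Mvd averaged 218 ± 2.09 CPM in set 2 WT and 47.9 ± 7.18 CPM in set 1 WT (SD, n = 2 each). Fasn averaged 556 ± 3.46 CPM in set 2 WT and 220 ± 14.8 CPM in set 1 WT, and Srebf2 262 ± 2.70 and 111 ± 20.6 CPM (SD, n = 2 each) in set 2 and set 1 WT. In the other direction, Lss averaged 13.4 ± 3.27 CPM in set 2 WT and 40.8 ± 1.61 CPM in set 1 WT, and Nsdhl 14.1 ± 3.81 and 36.3 ± 3.42 CPM (SD, n = 2 each). Over all 6 untreated samples of each set, 7 members lay wholly above set 1 in set 2 (Mvk, Mvd, Cyp51, Ebp, Srebf2, Fasn and Scd2; 19.1% of genes did) and 5 wholly below (Lss, Msmo1, Nsdhl, Insig1 and Scd1; 9.04% of genes). The remaining 16 overlapped. Set and depth differ together, and all samples of a set share it, so no test was made of these levels. In KH2 cells Mvd and Srebf2 lay in the range of set 2 or above it, while Fasn lay at 192 to 247 CPM, around set 1 WT.

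**Figure D4:**
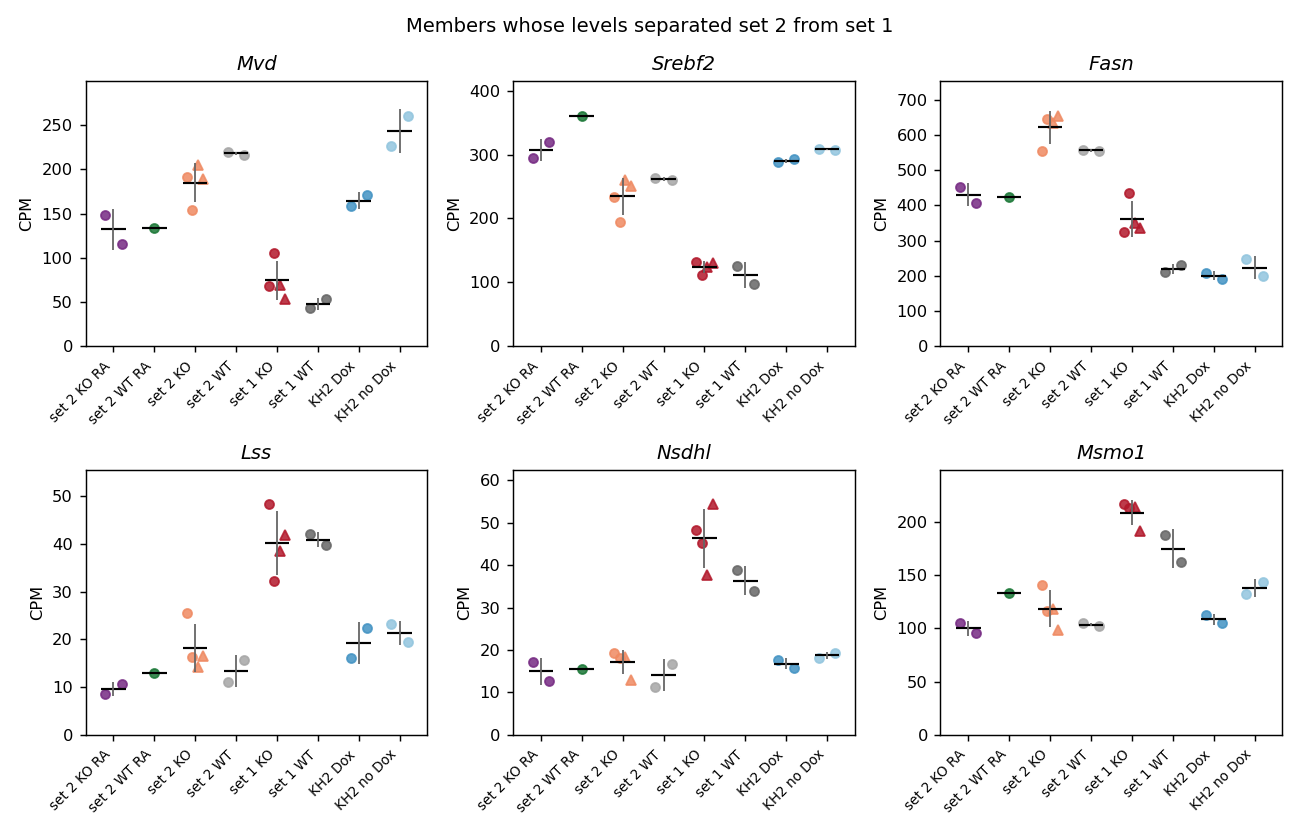
CPM per sample of 6 members in all groups (horizontal bar, mean; vertical line, SD; triangles, KO2). Mvd, Srebf2 and Fasn are wholly higher in untreated set 2 than in set 1, and Lss, Nsdhl and Msmo1 wholly lower.

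Inducing SETa in KH2 ESCs for 24 h addresses the effect of more SET. No cells without the transgene were given Dox, so an effect of Dox itself cannot be told apart from one of SETa. Mvd, the mevalonate decarboxylase, was the 1 member called, lower with Dox, at 158 and 171 CPM against 226 and 261 CPM without (log2 -0.56, SE 0.12, adjusted p = 0.0122). Of 27 tested members 0 were called higher, where 0.896% of genes were, and 1 lower, where 0.904% were (1.8% in either direction), and 9 had an unadjusted p under 0.05. Set itself had 1267 and 1126 CPM with Dox against 1020.5 and 964 CPM without (log2 0.28, SE 0.10, adjusted p = 0.175). The labels do not say whether transgene reads are part of these counts. The Mvd call was lost without sample KN2 (0 members called, without Dox), and Mvd and 1 more member were called without sample KD1 (with Dox). With replicate number as a block, 3 members were called: Ebp higher, Mvd and Scd2 lower.

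Ebp had 82.5 and 94.1 CPM with Dox against 59.9 and 72.6 CPM without (log2 0.42, SE 0.14, adjusted p = 0.121). Fdft1 had 83.3 and 82.96 CPM with Dox against 64.0 and 67.7 CPM without (log2 0.34, SE 0.13, adjusted p = 0.195). Msmo1, the C4 methyl oxidase, had 112 and 105 CPM with Dox against 132 and 144 CPM without (log2 -0.34, SE 0.12, adjusted p = 0.151). Scd2 had 445 and 334 CPM with Dox against 498 and 476 CPM without (log2 -0.31, SE 0.12, adjusted p = 0.183). None of these 4 passed. Groups of 2 against 2 often do not overlap: Dox samples lay wholly above those without for 4 of 27 members, where 22.5% of genes did, and wholly below for 13, where 23.3% did. Hmgcs1, at 625.02 and 637 CPM with Dox against 632 and 531 CPM without, had an interval from -0.10 to 0.35. Over the 27 tested members 20 fold changes were below 0, with a median of -0.15 against 0.0038 over all genes tested. Among markers, 3 of 10 ESC markers were higher and 5 of 19 feeder fibroblast markers lower with Dox, with summed feeder markers of 590 to 718 CPM with Dox against 1009 to 1052 CPM without, and their part in these values was not tested.

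RA for 4 days addresses how the pathways respond when the cells leave the ESC state, and whether the response differs in cells labelled KO. RA itself lowered Set in WT, to 580 CPM against 1198 and 1454 CPM untreated (log2 -1.23, SE 0.22, adjusted p = 0.00019), just above the 273 to 569 CPM of untreated KO. In both genotypes Scd2 had the highest fold change of the members, Sc5d, Hsd17b7, Srebf2 and the SREBP escort Scap rose, and Mvd, Pmvk, Ebp and Fasn fell. In KO cells 11 more members were called lower, 9 of them sterol enzymes from Hmgcs1 to Dhcr7. The WT comparison did not call these, but no member passed edgeR's quasi-likelihood test of a different response by genotype. A fall in KO cells alone is therefore not shown. RA moved about as many genes as not, so calls among the members stand beside a high background: in KO cells 5 of 28 members were called higher and 15 lower, against 28.3% and 26.8% of all genes tested (55.1% in either direction). In WT cells 6 members were called higher and 5 lower, against 24.8% and 22.5% (47.3%). The WT comparison rests on 1 RA sample, assumed to vary like the other groups. The 2 RA comparisons contrast different samples, but both come from 1 fit over all set 2 samples and share its estimate of spread. Each also uses untreated samples of the KO comparison above. Neither the 2 RA comparisons nor the 2 kinds of comparison are therefore independent.

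ESC markers summed to 345 and 348 CPM in RA KO samples and 296 CPM in the RA WT sample, against 1727 to 2018 CPM in untreated KO and 2708 and 3043 CPM in untreated WT. The 20 feeder fibroblast markers, many of which differentiated cells express too, summed to 5674 and 6450 CPM in RA KO and 5881 CPM in RA WT, against 440 to 679 CPM in untreated KO and 318 and 387 CPM in untreated WT. Extraembryonic endoderm markers summed to 6577 and 6621 CPM in RA KO and 4618 CPM in RA WT, against 1864 to 2225 CPM in untreated KO and 1232 and 1270 CPM in untreated WT. Of 8 tested neural markers, 6 were higher and 1 lower in KO and 5 higher in WT. The part of these cell types in the RA values was not tested.

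Scd2 had 1500 and 1477 CPM in RA KO samples against 525 to 771 CPM in untreated KO samples (log2 1.01, SE 0.11, adjusted p = 1.16e-08), and 1566 CPM in the RA WT sample against 504 and 541 CPM in untreated WT (log2 1.54, SE 0.15, adjusted p = 4.05e-09). Every RA sample lay above every untreated one. Scd1 fell in KO, at 44.5 and 37.7 CPM in RA KO samples against 48.6 to 58.2 CPM in untreated KO (log2 -0.50, SE 0.14, adjusted p = 0.0032), and at 42.7 CPM in RA WT against 50.7 and 53.6 CPM in untreated WT, which was not called (log2 -0.33, SE 0.20). Fasn had 454 and 408 CPM in RA KO samples against 554 to 655 CPM in untreated KO, and 423 CPM in RA WT against 559 and 554 CPM in untreated WT. It fell by 0.64 (SE 0.10, adjusted p = 5.35e-06) in KO and by 0.44 (SE 0.14, adjusted p = 0.0131) in WT. Acly and Acaca were not called in either genotype, at -0.16 (SE 0.11) and -0.42 (SE 0.18, adjusted p = 0.0521) in KO and -0.27 (SE 0.16) and -0.50 (SE 0.27) in WT.

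At the head of the sterol branch, Hmgcs1 had 564 and 525 CPM in RA KO samples against 743 to 999.6 CPM in untreated KO (log2 -0.75, SE 0.10, adjusted p = 9.01e-07). In WT it had 614 CPM after RA against 611 and 644 CPM untreated (log2 -0.07, SE 0.14). The RA WT sample thus lay within the untreated WT values and both RA KO samples below them. Mvd had 149 and 115 CPM in RA KO samples against 154 to 205 CPM in untreated KO, and 133 CPM in RA WT against 219 and 217 CPM in untreated WT. It fell by 0.59 (SE 0.12, adjusted p = 0.000151) in KO and by 0.75 (SE 0.17, adjusted p = 0.000685) in WT. Pmvk had 52.8 and 51.8 CPM in RA KO samples against 61.8 to 66.3 CPM in untreated KO, and 41.3 CPM in RA WT against 68.0 and 65.2 CPM in untreated WT. It fell by 0.42 (SE 0.13, adjusted p = 0.0072) in KO and by 0.72 (SE 0.19, adjusted p = 0.0026) in WT. Fdps had 9.75 and 14.5 CPM in RA KO samples against 12.8 to 21.2 CPM in untreated KO, which overlapped, and 10.9 CPM in RA WT against 14.6 and 16.5 CPM in untreated WT. It was called in KO (log2 -0.64, SE 0.24, adjusted p = 0.0275) but not in 6 of 13 alternatives, where the adjusted p reached 0.344, and not in WT (log2 -0.57, SE 0.36). Its level is uncertain too, since 275 of its last 500 exonic bases overlap Gm43738. Mvk was called in neither. Idi1 was called lower in KO on 4 and 1 counts after RA, too few to read a size from.

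Of the squalene and lanosterol enzymes, all 4 were called lower in KO and none in WT. Fdft1 had 60.2 and 55.3 CPM in RA KO samples against 75.1 to 101 CPM in untreated KO (log2 -0.72, SE 0.12, adjusted p = 1.62e-05), and 59.3 CPM in RA WT against 69.3 and 69.1 CPM in untreated WT. Lss had 8.48 and 10.6 CPM in RA KO samples against 14.2 to 25.6 CPM in untreated KO (log2 -0.99, SE 0.25, adjusted p = 0.0014), and 13.1 CPM in RA WT, within the untreated WT values of 11.1 and 15.7 CPM. Cyp51 had 126 and 121 CPM in RA KO samples against 146 to 166 CPM in untreated KO (log2 -0.47, SE 0.11, adjusted p = 0.000551), and 158 CPM in RA WT against 148 and 157 CPM in untreated WT. RA KO samples lay wholly below untreated KO for 14 of 28 members, these 4 enzymes included, where 27.1% of genes did, and wholly above for 6, where 36.6% did. Sqle, at -0.33 (SE 0.12, adjusted p = 0.0192; lost in 6 of 13 alternatives, DESeq2 included), had RA KO samples at 87.2 and 89.7 CPM, below the untreated KO range of 91.6 to 122 CPM, and 97.6 CPM in RA WT between untreated values of 91.4 and 107 CPM.

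The post-lanosterol enzymes split. Sc5d had 102 and 95.4 CPM in RA KO samples against 58.1 to 71.5 CPM in untreated KO (log2 0.54, SE 0.12, adjusted p = 0.000374), and 115 CPM in RA WT against 43.2 and 50.1 CPM in untreated WT (log2 1.25, SE 0.17, adjusted p = 6.22e-07). Hsd17b7, the 3-keto reductase, had 34.4 and 30.0 CPM in RA KO samples against 20.1 to 26.3 CPM in untreated KO, and 32.4 CPM in RA WT against 15.6 and 20.8 CPM in untreated WT. Its log2 fold change was 0.44 (SE 0.18, adjusted p = 0.0351) in KO, lost in 7 of 13 alternatives, and 0.75 (SE 0.25, adjusted p = 0.0153) in WT, lost in 2 of 12. Ebp had 61.1 and 54.2 CPM in RA KO samples against 69.5 to 92.8 CPM in untreated KO, and 44.3 CPM in RA WT against 67.6 and 77.9 CPM in untreated WT. It fell by 0.60 (SE 0.14, adjusted p = 0.000479) in KO and by 0.76 (SE 0.20, adjusted p = 0.0028) in WT. Dhcr7, which completes cholesterol, had 7.63 and 8.596 CPM in RA KO samples against 9.60 to 24.0 CPM in untreated KO (log2 -1.13, SE 0.29, adjusted p = 0.0018), and 7.61 CPM in RA WT against 14.6 and 13.3 CPM in untreated WT (log2 -0.89, SE 0.43, adjusted p = 0.0932). Msmo1 had 105 and 95.4 CPM in RA KO samples against 98.6 to 141 CPM in untreated KO, which overlapped (log2 -0.34, SE 0.12, adjusted p = 0.0164), and 133 CPM in RA WT against 105 and 103 CPM in untreated WT, which was not called (log2 0.32, SE 0.16). Tm7sf2 and Nsdhl were called in neither.

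Among the regulators, Scap and Srebf2 rose in both genotypes. Scap had 92.7 and 91.0 CPM in RA KO samples against 45.7 to 63.9 CPM in untreated KO (log2 0.67, SE 0.13, adjusted p = 8.44e-05), and 78.8 CPM in RA WT against 42.3 and 45.9 CPM in untreated WT (log2 0.80, SE 0.19, adjusted p = 0.001). Srebf2 had 295 and 320 CPM in RA KO samples against 195 to 261 CPM in untreated KO, and 361 CPM in RA WT against 264 and 260 CPM in untreated WT. Its call was lost in 3 of 13 alternatives in KO and in 2 of 12 in WT. Srebf1 was not called in KO, at 38.0 and 37.7 CPM after RA against 28.9 to 32.9 CPM untreated (log2 0.19, SE 0.16). It was called in WT, at 40.2 CPM after RA against 23.4 and 28.4 CPM untreated (log2 0.57, SE 0.22, adjusted p = 0.0343; lost in 5 of 12 alternatives). Its last exonic bases overlap Rai1 in part (109 of 500), which makes its level uncertain. Insig1 fell in WT, at 17.9 CPM after RA against 31.5 and 28.8 CPM untreated (log2 -0.77, SE 0.27, adjusted p = 0.0179), and stood at 27.99 and 23.6 CPM in RA KO against 21.7 to 25.4 CPM in untreated KO. The Insig1 call in WT was lost in 2 of 12 alternatives, DESeq2's Wald test among them. Acat2 had 138 and 103 CPM in RA KO samples against 149 to 167 CPM in untreated KO (log2 -0.48, SE 0.12, adjusted p = 0.000983), and 154 CPM in RA WT against 161 and 168 CPM in untreated WT, which was not called. Stard4 was called in neither.

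**Figure D5:**
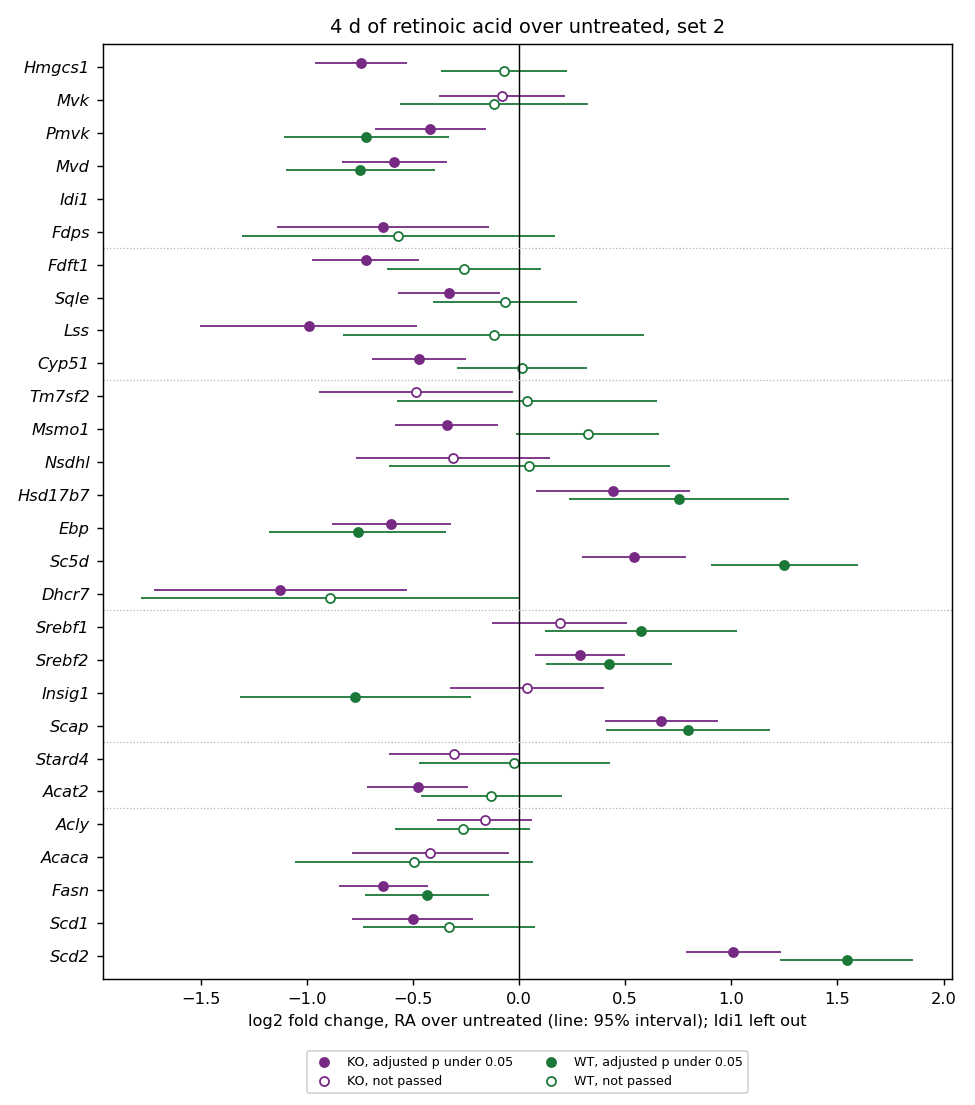
Log2 fold change of 4 days of RA over untreated cells for the members in pathway order, KO in purple above WT in green; lines are 95% intervals, filled points passed an adjusted p of 0.05, and Idi1 is left out for its few counts. Scd2 lies furthest to the right in both genotypes, and all 4 squalene and lanosterol steps passed on the lower side in KO and not in WT. None of these 4 passed the test of a difference between genotypes.

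Whether the response differed by genotype was tested as an interaction, KO minus WT. No member passed with edgeR's quasi-likelihood test, where 1.09% of all genes did (0.348% higher, 0.744% lower), while 7 had an unadjusted p under 0.05. The nearest was Hmgcs1 at -0.68 (SE 0.18, adjusted p = 0.0572), which DESeq2's Wald test, the fit without a filter on low counts and the fit with KO1 as the only untreated KO each called. Sc5d stood at -0.71 (SE 0.21, adjusted p = 0.106), Msmo1 at -0.67 (SE 0.20, adjusted p = 0.127), Scd2 at -0.53 (SE 0.19, adjusted p = 0.231) and Insig1 at 0.81 (SE 0.32, adjusted p = 0.296). Of the squalene and lanosterol steps, Cyp51 stood at -0.49 (SE 0.18, adjusted p = 0.262), Fdft1 at -0.46 (SE 0.21, adjusted p = 0.424) and Lss at -0.87 (SE 0.43, adjusted p = 0.47). The count was 1 without KO sample 2d or 2e and 3 without KO sample 2f. The fall of a member in KO beside no call in WT is therefore not shown to be a difference between genotypes.

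After RA, KO and WT did not differ past the threshold at any member (0 of 28, where 0.396% of genes did by edgeR, 0.287% higher and 0.109% lower, and 0 of 28 by DESeq2), while 4 had an unadjusted p under 0.05. Hmgcs1 had 564 and 525 CPM in RA KO against 614 CPM in RA WT (log2 -0.22, 95% interval -0.51 to 0.08). Scd2 had 1500 and 1477 CPM in RA KO against 1566 CPM in RA WT (interval -0.44 to 0.21). Cyp51, with Akap9 over 166 of its last 500 exonic bases, had 126 and 121 CPM in RA KO against 158 CPM in RA WT (log2 -0.40, SE 0.15, adjusted p = 0.532). Msmo1 had 105 and 95.4 CPM in RA KO against 133 CPM in RA WT (log2 -0.45, SE 0.16, adjusted p = 0.53). The RA counts of calls depended on samples too, with 12 in KO without RA KO sample 2i and 7 in WT without untreated WT sample 2a. With KO1 as the only untreated KO, 16 members were called in KO.

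Other genes of the same pathways were counted from lists that hold no member. In KO against WT over both sets, 4 of 21 other sterol synthesis and uptake genes were higher and 0 lower, and 7 of 24 other fatty acid genes were higher and 2 lower, where 10.4% of all genes tested were higher and 8.63% lower. Soat1, which stores cholesterol as esters, averaged 185 ± 20.9 CPM in set 1 KO and 78.9 ± 8.87 CPM in WT, and 165 ± 22.97 CPM in set 2 KO and 101 ± 5.36 CPM in WT (SD, n = 4 KO and 2 WT in each; log2 0.93, SE 0.12, adjusted p = 8.04e-06). Among the fatty acid genes, Acsl4 and Acsl3, which activate fatty acids to their CoA esters, rose by 0.58 (SE 0.11, adjusted p = 0.000622) and 0.56 (SE 0.12, adjusted p = 0.0012), and Me1, malic enzyme, a source of NADPH, rose by 0.68 (SE 0.15, adjusted p = 0.0023). Lpin1, a phosphatidate phosphatase, rose by 0.55 (SE 0.15, adjusted p = 0.0101). Of 9 tested sterol efflux and LXR genes 0 were called by edgeR, with 2 at an unadjusted p under 0.05, and of 9 SREBP cofactors 0, with 0 at that p.

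After RA, 5 of 21 other sterol genes were higher and 6 lower in KO, and 4 higher and 4 lower in WT. These counts and those of the lists that follow stand beside 28.3% of all genes higher and 26.8% lower in KO, and 24.8% and 22.5% in WT, and nothing particular to the lists is read from them. Soat1 and Npc2, which takes part in moving cholesterol out of lysosomes, were higher in both, and Ggps1, which makes geranylgeranyl diphosphate, was lower in both. Of 25 other fatty acid genes 6 were higher and 8 lower in KO, and 7 higher and 3 lower in WT. Elovl6, which elongates palmitate, averaged 47.8 ± 3.12 CPM in RA KO and 133 ± 15.4 CPM in untreated KO (SD, n = 2 and 4), and was at 51.4 CPM in RA WT against 167 ± 26.7 CPM in untreated WT (SD, n = 2). Of 10 efflux and LXR genes 2 were higher and 1 lower in KO, and 3 higher and 2 lower in WT. Nrip1, a coregulator of nuclear receptors, rose by 2.53 (SE 0.14) in KO and 2.65 (SE 0.20) in WT, Apoe, a lipoprotein, fell by 1.91 (SE 0.13) in KO and by 1.88 (SE 0.19) in WT, and Abca1, the cholesterol exporter, rose by 1.39 (SE 0.22) in KO and 1.21 (SE 0.33) in WT. Of 9 SREBP cofactors, 2 were higher and 4 lower in KO and 0 higher and 2 lower in WT, with Nfyb and Sp1 lower in both. With Dox 0 genes of these 4 lists were called by edgeR (1.8% of all genes were), while 3 of 20 sterol, 2 of 25 fatty acid, 2 of 9 efflux and LXR genes and 2 of 9 cofactors had an unadjusted p under 0.05.

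Over all comparisons, 22 of the 28 members were called at least once. The matching share of all genes was not computed, and RA alone called 55.1% of genes tested in KO and 47.3% in WT. Nothing particular to the members is read from this count. Mvk, Tm7sf2, Nsdhl, Stard4, Acly and Acaca were called in none. The SD over the 4 KO samples of a set had a median over members of 13.9% of the mean in set 1 and 12.5% in set 2.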

How the data were processed

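QuantSeq 3' mRNA libraries were made from 500 ng of RNA, per the labels' protocols. The deposited values are raw counts per gene. Reads were aligned with STAR 2.5.4b to GRCm38, per the submitters' processing notes, and counted with featureCounts 1.6.0 on Ensembl annotation 97, per the file headers. Their command sets no strand option and no option for reads that overlap several genes, so by that tool's defaults such reads are not counted and strand is ignored.

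The 23 libraries were summed by title code into 19 samples, since 4 codes had 2 libraries each. edgeR 4.0.16 fitted its quasi-likelihood F test with TMM scaling and filterByExpr (minimum count 10) on all genes in each comparison, with Benjamini-Hochberg adjustment; set was a covariate over both sets, and SE is the fold change over the square root of F. DESeq2 1.42.0 was an alternative. The set 2 RA fit covers 5 groups. On simulated data for the comparison over both sets (11515 genes, 200 changed), 78% of 2-fold and 99.1% of 4-fold changes were called. In the same simulation the shares for 2-fold and 4-fold changes were 48.5% and 90.7% in set 1 (9764 genes), 68.3% and 95.8% in set 2 (12681), 31.7% and 74.7% for the set difference (11950), 69.5% and 95.2% for Dox (12723), and over 14659 genes 52.9% and 87.5% for RA in KO, 41.6% and 80.8% for RA in WT, 50% and 74.4% for KO over WT after RA and 34.9% and 69.1% for the RA by genotype difference. Of the simulated calls, 4.79% over both sets, 2.92% for Dox and 3.47% for RA in KO fell on unchanged genes. This share exceeded the adjusted p threshold of 0.05 elsewhere: 7.38% in set 1, 5.59% in set 2, 8.62% for the set difference and 8.96% for RA in WT. It was above the threshold too for KO over WT in RA-treated cells (6.2%) and for the difference in RA response between genotypes (9.73%). CPM levels were computed from the counts with TMM-scaled totals of all samples. Totals of 806412 to 10217040 counts per sample limit precision; intervals and the floor of 3 counts cover counting error or the fitted spread only.

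The members and all lists were chosen with earlier results of these data known. All 28 members are named; those called get sample values, the 8 with the smallest adjusted p in a comparison full statistics, and from each other list up to 4 called genes with the smallest adjusted p. Some genes chosen by that rule are not reported here. Numbers shared between groups were checked for pairing. They were the titles' replicate numbers, except in set 2, where the order of the title code within its group was used. Samples with one number deviated together with correlations of -0.144 to 0.108, so these numbers showed no pairing. Pairing by the titles' replicate numbers was not tested in set 2, where summed samples carry more than one.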

Additional observations from a re-analysis of the deposited data

Results flagged for a closer look

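Of 56 groups of 4 KO samples, 1 for each member in each set, 3 had a sample whose gap to the nearest other was large for the range of the group, where chance flags about 1 in 20 groups. Hsd17b7 was at 26.3 CPM in set 2 KO sample 2d, while its other KO samples lay at 20.1 to 20.8 CPM. Msmo1 was at 192 CPM in set 1 KO sample 1f, below the others at 213 to 217 CPM. Srebf1 was at 20.02 CPM in set 1 KO sample 1d, below the others at 40.0 to 44.0 CPM.

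Fads2, the delta-6 desaturase and no member, had an RA response that differed by genotype, KO minus WT, by -0.76 (SE 0.18, edgeR adjusted p = 0.0355). It averaged 173 ± 0.147 CPM in RA KO and 122 ± 6.50 CPM in untreated KO (SD, n = 2 and 4). It was at 225 CPM in the single RA WT sample and averaged 97.9 ± 10.2 CPM in untreated WT (SD, n = 2), so the response was higher than untreated in 2 of 2 RA KO samples and in the 1 RA WT sample.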

How the results depend on the processing

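The 45 calls of members were read again in alternative fits, giving 616 pairs of a call and a fit. Of these pairs, 528 kept their direction and stayed past the threshold, 88 kept direction without passing and 0 turned round. Many pairs share a fit, as 134 fits were run in all, the main ones included. Hmgcs1 and Scd2 over both sets passed in all 21 alternatives run. The count of members called in KO over WT was 5 over both sets and became 8 with every library its own sample, 8 with the second library of a code as covariate too, and 9 with the side of the leading component as covariate. In set 2 it was 3 and became 6 with the side as covariate, 0 within the high side, 7 within the low side and 0 with KO2 alone. The alternatives with sides were chosen after seeing the data. The fits on all single libraries count both libraries of 4 title codes as replicates, so their n may exceed the number of distinct samples. On summed samples in set 2, Fdft1 (adjusted p = 0.0629), Fasn (0.247) and Scap (0.209), called with the side as covariate, did not pass. For the RA by genotype difference it was 0 and became 1 with DESeq2, 1 without a low-count filter and 1 with KO1 alone as untreated KO. Leaving out 1 sample gave 2 to 6 over both sets, 1 to 6 in set 1, 0 to 5 in set 2, 0 to 2 for Dox, 7 to 11 for RA in WT, 12 to 20 for RA in KO, 0 to 3 for the RA by genotype difference and 0 for the other 2 comparisons. The cause of these changes was not tested.

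A block fit used the replicate number, or in set 2 the order of the title code within its group. With this block, counts were 5 over both sets, 5 in set 1, 3 in set 2, 0 for the set difference and 3 for Dox (1 higher, 2 lower). The numbers used as blocks showed no pairing of the samples. No paired analysis was possible for RA because the RA titles carry no replicate numbers. Set 1 is the shallowest set, and Idi1 lies near its floor.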
